A study of Mus musculus with 4 samples.

Results

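Myogenic regulators are the transcription factors and the receptor that carry limb cells into the skeletal muscle lineage. They were followed here as 10 named genes, *Pax3*, *Pax7*, *Lbx1*, *Met*, *Msc*, *Myf5*, *Myf6*, *Myod1*, *Myog* and *Mef2c*, among the 23284 genes in the count files, and all 10 were found there by symbol. RNA had been sequenced from GFP-expressing live cells that were sorted by FACS from mouse limbs at E13.5 (strain C57BL/6J). The comparison is of 2 heterozygous embryos (GCE/+) with 2 embryos homozygous for the knock-in (GCE/GCE), which lack intact *Osr1*. In the GCE allele an eGFP-IRES-CreERt2 cassette sits in *Osr1*, which encodes a zinc finger transcription factor of connective tissue cells, so that GFP is driven by the *Osr1* locus. Every sample therefore carried the cassette, GCE/+ cells kept an intact *Osr1* allele, and neither wild-type cells nor cells without GFP were analysed here.

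The skeletal muscle of a limb forms from precursors that leave the somites and migrate in. *Pax3* and *Pax7* mark the muscle progenitors, and *Lbx1* and the receptor gene *Met*, whose ligand is hepatocyte growth factor, serve their migration. The basic helix-loop-helix (bHLH) factors *Myf5* and *Myod1* commit these cells to the myoblast fate, *Myog* and *Myf6* act in differentiation, *Mef2c* is a MADS-box partner of these factors, and *Msc* encodes a bHLH repressor. Since the sort selected connective tissue cells, the levels of these genes give the myogenic RNA that was present in the sorted cells of each genotype. In bulk RNA of this kind, the number of myogenic cells and the RNA of each such cell cannot be told apart. Nor can RNA made by the *Osr1*-expressing cells themselves be set apart. By antibody labelling, the paper found Myf5 and Myogenin protein in sorted GFP-negative cells and in no GFP-positive cell.

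The counts of a sample summed to between 52121596 and 61402140, and 3 counts amounted to 0.0489 to 0.0576 CPM (counts scaled to library size). *Osr1* itself had 81.9 and 79.1 CPM in GCE/+ replicates 1 and 2 and 11.9 and 13.9 CPM in GCE/GCE replicates 1 and 2. All 12 markers of limb mesenchyme and connective tissue fibroblasts were detected, with a summed level of 17055 to 21896 CPM, led by *Col3a1* and *Col1a2*. One library stood apart, as *Xist*, the RNA of the inactive X chromosome, reached 1142 CPM in GCE/GCE replicate 1, whereas no other sample exceeded 2.63 CPM. Markers of other cell types were detected as well, and which cells held their RNA was not tested. The paper reports the rise of cartilage genes as a change of the *Osr1*-deficient cells. The 13 macrophage markers in the files, with *Mrc1* and *Csf1r* the highest, summed to 389 to 402 CPM in the heterozygotes and to 172 to 245 CPM in the homozygotes, and 10 of the 13 were lower at an adjusted p under 0.1 in edgeR, where 0.895% of all genes were. The 15 cartilage markers, with *Col2a1* and *Col11a1* the highest, summed to 1021 to 1502 CPM in the heterozygotes and to 2131 to 2293 CPM in the homozygotes, and 6 of the 15 were higher by the same rule, where 0.888% of all genes were. The 12 endothelial markers, led by *Kdr* and *Eng*, summed to 141 to 177 CPM in the heterozygotes and 116 to 144 CPM in the homozygotes. These sums overlapped, and 0 of the 12 passed an adjusted p under 0.1 in edgeR. At an unadjusted p under 0.05 in edgeR, 6 of the 12 were lower, where 4.92% of all genes were. No marker of these 3 lists was at 0 in all samples. The part of these shifts in the values of the myogenic genes and the lists around them was not tested.

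The myogenic regulators were present at low to moderate levels, and their order was the same in all 4 embryos. For comparison between genes, CPM were divided by the length of the longest annotated transcript in kilobases (kb). On this scale *Myog* had the highest level, at 16.3 and 18.5 CPM per kb in the heterozygotes and 18.4 and 16.1 CPM per kb in the homozygotes. Its mean over the 4 samples lay above 72.7% of all genes that were tested. *Mef2c* followed with 6.30 to 6.63 CPM per kb, *Myod1* with 4.38 to 5.25 and *Msc* with 2.68 to 3.19. These 4 ranges did not touch each other. Below them came *Met*, with 1.82 to 1.96 CPM per kb, and *Myf5*, with 0.938 to 1.31. *Pax7* had 0.454 to 0.750 and *Pax3* 0.285 to 0.656 CPM per kb, and they were the only neighbours in this order whose ranges overlapped. *Lbx1* reached 0.0855 to 0.115 CPM per kb, and *Myf6* was last with 0 to 0.0388.

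**Figure D1:**
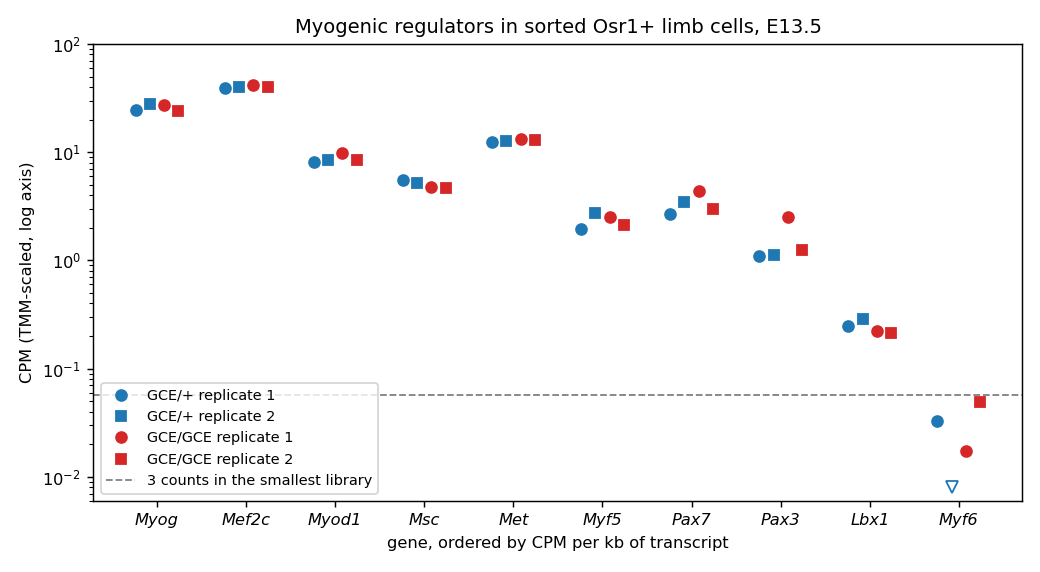
CPM of the 10 myogenic regulators in each of the 4 samples on a log axis, with GCE/+ in blue and GCE/GCE in red (circles, replicate 1; squares, replicate 2). The open triangle marks a count of 0, and the dashed line is the level of 3 counts in the smallest library. The points of a gene lie close together for all but *Pax3* and *Myf6*, and *Pax3* is highest in GCE/GCE replicate 1, at 2.53 CPM.

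Among the progenitor genes, *Pax3* showed the largest spread. It lies on chromosome 1 of GRCm38 (78101267 to 78197134, minus strand) and had 1.10 and 1.13 CPM in the heterozygotes and 2.53 and 1.26 CPM in the homozygotes. The groups did not overlap, but GCE/GCE replicate 2 stood near the GCE/+ samples and replicate 1 far above them. This spread was larger than counting error, since the 147 fragments of GCE/GCE replicate 1 gave 2.52 CPM of the raw total (95% exact binomial interval 2.13 to 2.96) and the 77 fragments of replicate 2 were 1.25 (0.990 to 1.57). Intervals of this kind cover counting error only. The log2 fold change of *Pax3* in GCE/GCE against GCE/+ cells was 0.76 (SE 0.34, 95% interval -0.02 to 1.54), and the adjusted p was 0.499 by the quasi-likelihood F test of edgeR. It was 0.17 without GCE/GCE replicate 1. Without GCE/GCE replicate 2 it was 1.18, and *Pax3* then passed the threshold with an adjusted p of 0.0338 in the same edgeR test, so the value rested on the library that also stood apart by *Xist*. *Pax3* is also known in Schwann cell precursors and melanoblasts. The 9 Schwann cell and neural crest markers, led by *Ngfr* and *Gfra3*, summed to 179 to 184 CPM in the heterozygotes and to 153 and 132 CPM in GCE/GCE replicates 1 and 2. The 7 melanoblast markers, led by *Kit* and *Mitf*, summed to 25.3 to 25.6 CPM in the heterozygotes and to 24.1 and 22.5 CPM in the homozygotes. Their part in the level of *Pax3* was not tested.

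*Pax7*, which encodes the paralog of *Pax3* kept by muscle stem cells (chromosome 4 of GRCm38, 139737062 to 139833528, minus strand), had 2.66 and 3.50 CPM in the heterozygotes and 4.39 and 3.01 CPM in the homozygotes. The genotypes overlapped, with the highest value again in GCE/GCE replicate 1. Its log2 fold change was 0.27 (95% interval -0.29 to 0.82), and it was -0.04 without that sample. *Lbx1*, a homeobox gene of migrating limb muscle precursors (chromosome 19, 45232684 to 45235812, minus strand), was near the limit of what the depth can resolve. It had 15 and 15 fragments in the heterozygotes and 13 and 13 in the homozygotes, or 0.246, 0.287, 0.224 and 0.212 CPM. Its log2 fold change of -0.28 had a wide 95% interval, from -1.20 to 0.64.

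*Met* (chromosome 6, 17463800 to 17573980, plus strand) was among the steadiest of the 10 genes. It had 12.4 and 12.8 CPM in the heterozygotes and 13.4 and 12.9 CPM in the homozygotes, and its highest value was 1.08 times its lowest. The log2 fold change was 0.06 with a 95% interval of -0.20 to 0.31, or 0.870 to 1.24 as a fold. *Msc*, whose product musculin represses targets of MyoD1 (chromosome 1, 14753346 to 14755992, minus strand), had 5.55 and 5.18 CPM in the heterozygotes and 4.77 and 4.67 CPM in the homozygotes. Both GCE/GCE values lay below both GCE/+ values. The log2 fold change was -0.19 (SE 0.16, 95% interval -0.54 to 0.17). With each sample left out in turn it ran from -0.23 to -0.14, where groups without overlap fix the sign in advance. *Msc* shares exonic bases with an antisense gene, *Gm9947*, on the other strand, and the strand setting of the counting is not given in the sources used here. Reads of the pair may therefore not be told apart.

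The 4 bHLH determination and differentiation genes summed to 34.5 and 38.8 CPM in the heterozygotes and to 39.9 and 34.8 CPM in the homozygotes, so the genotypes overlapped in total. *Myod1* (chromosome 7, 46376474 to 46379099, plus strand) had 8.15 and 8.43 CPM in the heterozygotes and 9.77 and 8.53 CPM in the homozygotes. GCE/GCE replicate 2 lay just above the GCE/+ samples, and the log2 fold change was 0.14 (SE 0.14, 95% interval -0.17 to 0.45). *Myf5* (chromosome 10, 107482908 to 107486134, minus strand) had 1.95 and 2.73 CPM in the heterozygotes and 2.50 and 2.11 CPM in the homozygotes. Both GCE/GCE samples fell between the GCE/+ samples, and the log2 fold change was -0.02 (95% interval -0.57 to 0.53). The samples of GCE/+ thus differed more from each other in *Myf5* than the genotypes did. *Myf6*, separated from *Myf5* by 6718 bases on the same strand (chromosome 10, 107492853 to 107494737), had 2 and 0 fragments in the heterozygotes and 1 and 3 fragments in the homozygotes. It did not pass the filter on low counts and no fold is given. The count of 0 allows up to 0.0576 CPM in that library when taken as 3 counts, and up to 0.0708 CPM by the exact 95% binomial interval.

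*Myog* (chromosome 1, 134289989 to 134292548, plus strand), which drives the differentiation of myoblasts, had 1483 and 1445 fragments in the heterozygotes and 1601 and 1477 fragments in the homozygotes. These were 24.4 and 27.6 CPM against 27.6 and 24.1 CPM, so that each genotype had a higher and a lower embryo at nearly the same levels. The log2 fold change was -0.01 (SE 0.12), and its 95% interval of -0.28 to 0.26 corresponds to folds from 0.826 to 1.20. The ratio of *Myog* to *Myod1*, each as CPM per kb, was 3.72 and 4.08 in the heterozygotes and 3.51 and 3.52 in the homozygotes. That of *Myf5* to *Myod1* was 0.214 and 0.290 in the heterozygotes and 0.228 and 0.221 in the homozygotes. For these ratios the SD was 0.252 and 0.0533 over the heterozygotes and 0.00517 and 0.00544 over the homozygotes (n = 2 each). The genotypes did not overlap in the first ratio and overlapped in the second. In CPM, the genotypes did not overlap for 38.4% of all genes tested. Neither ratio was tested.

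The promoters of *Myf5*, expressed early in the lineage, and of *Myog*, the member with the highest level, are shown because *Myog* is the textbook target at which several of these regulators meet. Each is given as 300 bases of RefSeq sequence on GRCm38.p6, from 250 bases before to 50 bases after an annotated start, read 5′ to 3′ on the gene's own strand. Capitals mark matches to the E-box CANNTG, which bHLH factors can bind, to the MEF3 motif TCAGGTT, and to the TATA box TATAAA, all searched on both strands. The windows are chr10:107486085-107486384 (minus strand) for *Myf5* and chr1:134289754-134290053 (plus strand) for *Myog*.
Myf5: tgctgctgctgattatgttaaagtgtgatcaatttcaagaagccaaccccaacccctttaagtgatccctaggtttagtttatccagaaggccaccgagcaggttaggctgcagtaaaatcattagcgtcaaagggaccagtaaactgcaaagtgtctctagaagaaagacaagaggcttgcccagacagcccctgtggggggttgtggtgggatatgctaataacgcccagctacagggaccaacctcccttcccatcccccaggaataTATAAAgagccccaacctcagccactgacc
Myog: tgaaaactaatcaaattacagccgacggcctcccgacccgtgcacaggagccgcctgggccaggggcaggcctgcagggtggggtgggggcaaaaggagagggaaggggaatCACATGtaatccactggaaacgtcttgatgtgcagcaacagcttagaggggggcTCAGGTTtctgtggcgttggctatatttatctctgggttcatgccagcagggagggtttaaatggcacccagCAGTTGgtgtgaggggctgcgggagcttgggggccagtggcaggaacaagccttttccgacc

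In these windows *Myog* held 2 E-boxes and 1 MEF3 match, and *Myf5* held no E-box and 1 TATA match. This TATA match began at position 21 after the annotated start. A fixed MEF2 pattern, YTAWWWWTAR (Y is C or T, W is A or T, R is A or G), and the E-box form CAGCTG were also searched. Both had 0 matches in either window. The *Myog* window holds ctatatttat, which departs from the MEF2 pattern at its last base only. Looser MEF2 matches were not searched, so the 0 does not show that *Myog* lacks a MEF2 site here. An E-box was present in 72.3% of the 32851 promoter windows of this length, a MEF3 match in 4.07% and a TATA match in 13.6%. The MEF2 pattern was present in 3.19% and CAGCTG in 16.3%. The 300-base windows of *Pax7*, *Met* and *Mef2c* were also available, with 0 E-boxes for *Pax7* and 2 for *Met*, and with 2, 0 and 1 for the 3 start sites of *Mef2c*. The first *Mef2c* window also held 1 MEF3 match and 1 TATA match, and the second held 1 TATA match. The windows of *Pax7* and *Met* held neither motif. *Pax3*, *Lbx1*, *Msc*, *Myf6* and *Myod1* had no entry.

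*Mef2c*, the MADS-box cofactor (chromosome 13, 83504034 to 83667080, plus strand), had the most counts of the 10 genes and the smallest spread. It had 39.6 and 40.0 CPM in the heterozygotes and 41.6 and 40.1 CPM in the homozygotes, with a highest value 1.05 times the lowest. The log2 fold change was 0.04 (SE 0.09), with a 95% interval from -0.17 to 0.25, or from 0.890 to 1.19 as a fold. *Mef2c* is known in endothelial, cartilage and myeloid cells besides muscle, and the summed markers of those cells moved in both directions between the genotypes, as given above. Their part in the level of *Mef2c* was not tested.

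Over the whole table, none of the 9 members that could be tested passed an adjusted p of 0.1 in the edgeR fit, and the lowest adjusted p was that of *Pax3*. In that fit 1.78% of the 15645 genes tested passed. With DESeq2, where 3.25% of genes passed (1.65% higher, 1.6% lower), 0 members did so. None of the 9 had an unadjusted p under 0.05 in the edgeR fit, against 10.5% of all genes (5.54% higher, 4.92% lower). By sign, 5 were higher and 4 lower in the homozygotes, with a median log2 fold change of 0.04 beside 0.00 for all genes tested, and the signs of *Myf5*, *Myog*, *Met* and *Mef2c* turned with transcript length offsets. Without GCE/GCE replicate 1 the median was -0.039, with 4 higher and 5 lower, and without GCE/+ replicate 2 or GCE/GCE replicate 2 it was 0.086 or 0.085, with 7 higher and 2 lower. The groups did not overlap for 6 of the 9 members, *Pax3*, *Myod1*, *Met* and *Mef2c* being higher and *Lbx1* and *Msc* lower in the homozygotes. This was so for 38.4% of all genes (19.2% higher, 19.1% lower), and for *Mef2c* the nearest samples were 40.0 and 40.1 CPM. A test that misses the threshold does not show equal levels, and the intervals above give the differences that remain possible. They were narrowest for *Mef2c*, *Met* and *Myog* and widest for *Lbx1* and *Pax3*.

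**Figure D2:**
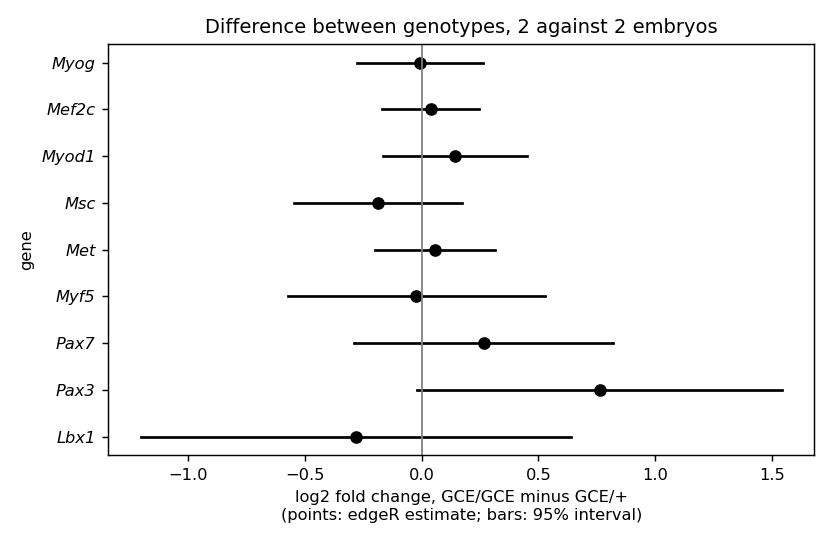
Log2 fold changes in GCE/GCE against GCE/+ cells for the 9 myogenic regulators tested, with points for the edgeR estimate and bars for its 95% interval, from 2 embryos a genotype. All 9 bars cross 0, that of *Pax3* by the least, from -0.02 to 1.54.

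**Figure D3:**
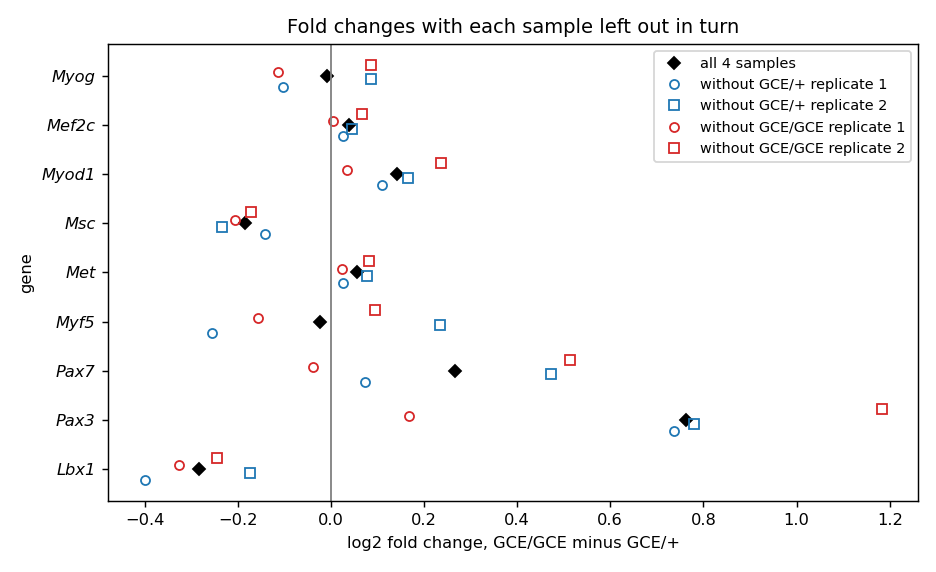
Log2 fold changes of the same 9 genes with all 4 samples (black) and with each sample left out in turn (open symbols, blue where a GCE/+ and red where a GCE/GCE sample was left out). *Pax3* moved from 0.17 to 1.18, and *Myog* stayed between -0.11 and 0.09.

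The genes around these regulators were examined by lists. Of 23 upstream regulators and partners of the bHLH factors, 4 were higher and 0 lower in the homozygotes at an adjusted p under 0.1, where 0.888% of all genes were higher and 0.895% lower. Among these were *Eya1*, *Eya4* and *Meox1*. The median log2 fold change of the list was 0.11, and it was 0.055 without GCE/+ replicate 1 and 0.25 without GCE/+ replicate 2. *Eya1*, a transcriptional coactivator, had 13.9 and 12.5 CPM in the heterozygotes and 25.1 and 22.1 CPM in the homozygotes, a rise of 0.83 on the log2 scale (SE 0.12, edgeR adjusted p = 0.0288). *Eya4* rose by 0.80 (SE 0.16, edgeR adjusted p = 0.0789), and the homeobox gene *Meox1* rose by 0.41 (SE 0.08, edgeR adjusted p = 0.0618). For all of them the homozygotes stood above the heterozygotes with no overlap. *Eya1* passed the threshold with each of the 4 samples left out, and *Eya4* and *Meox1* each in 3 of the 4 fits. In the whole list, 2 genes passed without GCE/+ replicate 1 and 7 without GCE/+ replicate 2. Eya and Meox factors are also known in limb cells outside the muscle lineage. The E proteins *Tcf4*, *Tcf12* and *Tcf3*, which pair with the myogenic bHLH factors, had the highest levels of the list and log2 fold changes of 0.21, 0.08 and -0.02 that did not pass. *Tcf4* here is the E2-2 gene and not *Tcf7l2*, the connective tissue marker often given the same name.

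None of 22 inhibitors of the bHLH factors passed in edgeR's test or with DESeq2, while 2 of the 22 had an unadjusted p under 0.05, near the 10.5% of all genes, namely *Mstn* with a log2 fold change of 0.49 and *Tcf21* with -1.24, both named after their values were seen. The median of the list was -0.05. Its highest members, *Id2*, *Id3* and *Id1*, whose products sequester E proteins, had log2 fold changes of -0.09, -0.06 and -0.15. Of 13 genes of hepatocyte growth factor and Met signalling, 1 passed in the edgeR fit, as lower, where 0.895% of all genes did. This was *Plau*. It encodes urokinase, a protease able to activate hepatocyte growth factor, and had 37.5 and 52.8 CPM in the heterozygotes and 27.7 and 23.4 CPM in the homozygotes. Its level fell by 0.82 in log2 units (SE 0.16, edgeR adjusted p = 0.0737), and with transcript length offsets its adjusted p in the edgeR test was 0.125. The median of this list was -0.01. The ligand gene *Hgf*, picked out as the partner of *Met* after its values were seen, had 9.89 and 13.502 CPM in the heterozygotes and 9.53 and 8.89 CPM in the homozygotes, with a log2 fold change of -0.34 (edgeR adjusted p = 0.541, SE 0.16). The adaptor and phosphatase genes *Ptpn11*, *Shc1* and *Gab1* had the highest levels of the list, with log2 fold changes of 0.06, 0.08 and 0.05.

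Downstream of the regulators, muscle genes were also present in the sorted cells. The 17 genes of the muscle cell surface, fusion and synapse summed to 74.1 and 83.0 CPM in the heterozygotes and to 92.0 and 83.8 CPM in the homozygotes. None of the 17 passed in edgeR's test, 2 of the 17 had an unadjusted p under 0.05, near the 10.5% of all genes (*Ryr1* with a log2 fold change of 0.43 and *Itga7*, named after its values were seen, with -0.61), and the median was 0.14. Without GCE/GCE replicate 1 the median was -0.031. By DESeq2 0 of the 17 passed as well. The highest members were *Ryr1*, the calcium release channel, *Cdh15*, the muscle cadherin, and *Fgfr4*, at 15.0, 11.4 and 11.2 CPM over the 4 samples. The 26 contractile genes, of which 25 were tested, summed to 254 and 291 CPM in the heterozygotes and to 338 and 309.6 CPM in the homozygotes. In this list 23 of the 25 had a positive log2 fold change, 12 of the 25 were higher at an unadjusted p under 0.05, where 5.54% of all genes were, and 16 had both homozygotes above both heterozygotes, where 19.2% of all genes were. The number higher at an unadjusted p under 0.05 was 6 without GCE/+ replicate 1, 15 without GCE/+ replicate 2, 8 without GCE/GCE replicate 1 and 7 without GCE/GCE replicate 2. The median log2 fold change was 0.34. It ranged from 0.20 to 0.42 with each sample left out in turn, and was 0.29 with transcript length offsets. Of the 25 contractile genes tested, 1 passed the threshold in edgeR as higher, where 0.888% of all genes did. This was the perinatal myosin heavy chain gene *Myh8*. With DESeq2 3 contractile genes were higher and 0 lower, where 1.65% of all genes were higher and 1.6% lower. *Myh8* had 4.86 and 5.93 CPM in the heterozygotes and 11.4 and 9.92 CPM in the homozygotes. Its rise was 0.98 on the log2 scale (SE 0.16, edgeR adjusted p = 0.0357). Reads of *Myh8* may be shared with other myosin heavy chain genes, so its count is uncertain. *Actc1*, *Myh3* and *Tnnt1* were the most abundant, with mean CPM of 71.6, 38.4 and 26.5 and log2 fold changes of 0.15, 0.37 and 0.20.

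**Figure D4:**
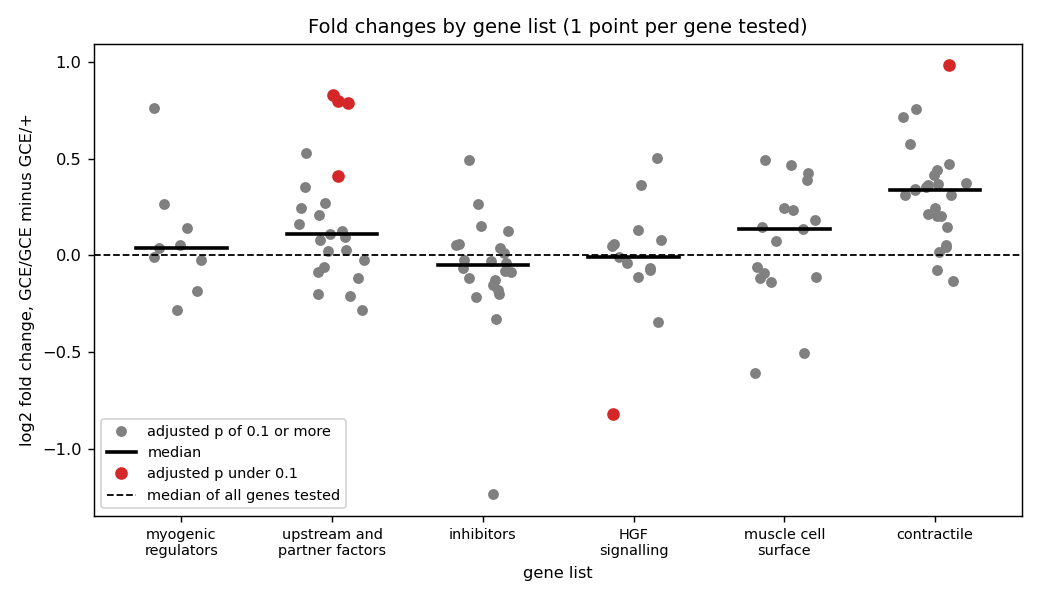
Log2 fold changes in GCE/GCE against GCE/+ cells for each tested gene of 6 lists, with genes at an adjusted p under 0.1 in red, a black bar at the median of each list, and a dashed line at the median of all genes tested. The myogenic regulators have a median of 0.04 and the contractile genes one of 0.34.

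Genes with the most similar profile were found by the root mean square distance between log2 CPM over the 4 samples, each profile centred on its mean. For *Myog* they were *Fitm2*, *Fbxw11*, *Foxk1*, *Cdon* and *Nanos1*, at distances of 0.0127 to 0.0151, and for *Myod1* they were *Dennd3*, *Nbeal2*, *Lix1*, *Reep2* and *Sik3*, at 0.0140 to 0.0166. With 4 samples such likeness was common, as 24.4% of 13461 genes lay within 0.1 of *Myog* and 20.9% within 0.1 of *Myod1*. The contractile genes were not closer at the median, with a median distance of 0.195 to *Myog* and 0.165 to *Myod1*, beside 0.140 for all genes in each case.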

How the data were processed

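RNA of 4 samples (2 GCE/+ and 2 GCE/GCE embryos, numbered 1 and 2 in the labels) was sequenced by the authors as 50-bp paired-end reads, aligned by TopHat2 (build mm9, guided by UCSC gene models) and assigned to genes by HTSeq under its intersection-strict rule. The authors deposited raw counts, 1 value per gene symbol. The files hold no row for unassigned fragments.

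Counts were filtered with filterByExpr, scaled by TMM and tested with edgeR 4.0.16 (quasi-likelihood, genotype only, two-sided, R 4.3.3), with Benjamini-Hochberg adjustment over 15645 genes and a threshold of 0.1. Standard errors and intervals came from the F statistic and 8.34 degrees of freedom. DESeq2 1.42.0 was an alternative, beside other normalizations, filters, thresholds, transcript length offsets, a replicate block and leaving out each sample. The procedure was tested on simulated data. Replicates differed beyond counting noise (chi-square per degree of freedom 25.9 and 21.9).

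Positions and transcript lengths were taken from GENCODE M21 (GRCm38) by symbol (98.0% matched), with no conversion from mm9.

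The members and lists were chosen with earlier results of these data known. Named genes were all members; from each pathway list those past the threshold and the 3 with the highest mean CPM; from marker lists the 2 highest; and the 5 nearest to *Myod1* and *Myog* with a mean of at least 1 CPM. The epidermal and erythroid marker lists summed to 25.8 to 33.0 CPM (*Krt18*, *Epcam* highest) and 258 to 588 CPM (*Hbb-y*, *Tfrc* highest). A gene that this rule names is not reported here.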

Additional observations from a re-analysis of the deposited data

How the results depend on the processing

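No member passed under any alternative other than leaving out GCE/GCE replicate 2, where *Pax3* did, so that the number of members past the threshold ran from 0 to 1 with each sample left out. With transcript length offsets the log2 fold change was 0.014 for *Myf5*, 0.036 for *Myog*, -0.032 for *Met* and -0.036 for *Mef2c*, each against the sign of the reported value. With each sample left out it ran from -0.039 to 0.51 for *Pax7*, from -0.26 to 0.24 for *Myf5*, from -0.11 to 0.086 for *Myog* and from 0.17 to 1.18 for *Pax3*. Of all genes, 279 passed (139 higher, 140 lower), against 122 at an adjusted p under 0.05, 502 with DESeq2, 425 with no filter on low counts, and 197 to 984 with each sample left out, with 984 without GCE/+ replicate 2 and 696 without GCE/GCE replicate 1. Of the genes in the 5 pathway lists, 6 passed, against 2 at an adjusted p under 0.05 and 4 to 14 with each sample left out, 14 without GCE/+ replicate 2 and 12 without GCE/GCE replicate 1. On CPM not divided by length, 7 members took another rank and *Mef2c* came first. The causes of these changes were not tested.

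The replicate numbers were not shown to pair the embryos, since same-numbered samples deviated from their group means with a correlation of 0.0197 across 13469 genes. With the replicate number as a block, 0 members, 280 genes in all and 6 listed genes passed, *Plau* no longer among them (edgeR adjusted p = 0.111). When a sample was left out, the lone sample of its genotype was assumed to vary like the other group. *Lbx1* and *Myf6*, with 15 or fewer fragments a sample, are limited by depth.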
